A study of Mus musculus with 4 samples.

Results

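The CHD (chromodomain helicase DNA-binding) genes encode chromatin remodellers, and 5 of them were read, by 9 of the 22690 probe sets on the array, among 12393 genes with a probe set of their own symbol. They were found by the gene symbol that the array's annotation gives: every probe set with exactly 1 symbol among Chd1, Chd2, Chd3, Chd4, Chd6, Chd7, Chd8 and Chd9. Chd1 and Chd4 had 3 probe sets each, Chd6, Chd7 and Chd8 had 1 each, and no listed probe set carried the symbol Chd2, Chd3 or Chd9. The family was chosen by the value of Chd6, which had one of the smaller p-values in the comparison of mTert with control samples, so all values of that comparison are given as a description, and no test in it supports a statement about the family.

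RNA came from fibroblasts of mouse embryos, a primary connective tissue cell, that had received a pBabePuro retrovirus, which carries puromycin resistance. In the 2 mTert samples the vector carried mTert, the catalytic subunit of mouse telomerase, and in the 2 control samples it was empty, so all 4 samples carry the vector. The labels do not give the strain, the passage, whether cells were pooled or cloned, or whether samples of a group came from separate cultures, and p-values cover only the spread among the samples at hand, part of which may be technical. Each sample was hybridised to 1 Affymetrix MOE430A array, on which a set of short probes gives 1 signal per transcript together with a call of present or absent.

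CHD proteins carry a tandem pair of chromodomains, modules that read histone tails, next to a Snf2-type ATPase motor that slides, spaces or evicts nucleosomes. They fall into subfamilies. Chd1 and Chd2 act at transcribed genes, Chd3 and Chd4 are the motors of the NuRD histone deacetylase complex, and Chd6 to Chd9 are very large proteins with regulatory roles in development. In embryonic cells remodellers of this family are known for keeping chromatin open or closed at regulatory regions.

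Tert was called present on both mTert arrays, at signals of 1165 and 845, and absent on both control arrays, at 128 and 84.7, which is at least 9.53-fold higher as a ratio of geometric means. Between 51.6% and 54.4% of probe sets that are not controls were called present on an array. The recorded amount of labelled cRNA was 15 µg on both mTert arrays and on control 2, but 5 µg on control 1. All 11 fibroblast markers examined were present on every array, with a summed signal of 100992 and 99483 on the mTert arrays and of 105361 and 102141 on the control arrays; the mTert sums lay below the control sums, and the part of this in the differences given here was not tested. Macrophage markers followed the number in the sample titles and not the group: their summed signal was 3211 and 11802 on mTert 1 and mTert 2, and 2942 and 11412 on control 1 and control 2, and for 0 of the 10 genes were the groups apart. Of the markers of endothelial, epithelial, muscle and neural cells, 4 of 6, 4 of 6, 5 of 6 and 5 of 6 were called absent on all arrays.

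The start regions of Chd6 and Chd8 are shown because these are the members of the large subfamily that were called present, Chd6 with the groups apart and Chd8 with the groups overlapping. Sequences are from RefSeq on build GRCm38.p6, from 250 bases before the transcription start to 50 after it, and 4 of the 8 members (Chd4, Chd6, Chd8 and Chd9) matched an entry. The Chd6 region is chr2:161109037-161109336 on the minus strand and the Chd8 region is chr14:52257711-52258010 on the minus strand. Capitals mark the CCAAT box (CCAAT) and the GC box (GGGCGG) on either strand.
Chd6: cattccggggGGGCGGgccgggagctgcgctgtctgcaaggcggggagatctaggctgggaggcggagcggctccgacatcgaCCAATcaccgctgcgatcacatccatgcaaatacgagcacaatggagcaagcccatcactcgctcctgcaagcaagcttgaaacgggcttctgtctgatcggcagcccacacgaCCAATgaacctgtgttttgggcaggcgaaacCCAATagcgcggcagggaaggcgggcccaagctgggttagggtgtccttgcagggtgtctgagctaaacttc
Chd8: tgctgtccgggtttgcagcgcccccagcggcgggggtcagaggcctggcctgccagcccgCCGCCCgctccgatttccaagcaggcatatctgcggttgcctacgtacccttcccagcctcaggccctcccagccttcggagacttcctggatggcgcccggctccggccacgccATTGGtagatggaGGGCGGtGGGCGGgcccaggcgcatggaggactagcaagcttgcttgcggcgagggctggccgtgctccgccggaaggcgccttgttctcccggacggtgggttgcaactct
The Chd6 region held 3 CCAAT boxes and 1 GC box, and the Chd8 region 1 CCAAT box and 3 GC boxes. Of all 32851 such windows in the table, 37.4% held a CCAAT box and 35.7% a GC box. The antioxidant response element TGACNNNGC, the site bound by the factor Nfe2l2, was in neither region on either strand, and 12.4% of all windows held it. These matches describe letters and not bound sites.

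Chd6, a DNA-dependent ATPase whose human protein has been found bound to the oxidative stress factor NRF2 (Nfe2l2), had the higher signal in mTert cells. Its probe set read 464 and 413 on mTert 1 and mTert 2, and 239 and 179 on control 1 and control 2. Both mTert arrays thus lay above both control arrays, and the lower mTert signal exceeded the higher control signal. The probe set was called present on all 4 arrays, with detection p-values of 0.00195 and 0.000732 on the mTert arrays and 0.000244 and 0.00195 on the control arrays, so no array fell below the detection limit. The mean was 439 ± 36.4 in mTert and 209 ± 42.7 in control (SD, n = 2 each), with a log2 difference of 1.08, which is 2.12-fold as a ratio of geometric means (SE 0.20 from limma's linear model, 95% interval 0.59 to 1.58).

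In each of the 4 pairings of an mTert with a control array Chd6 was higher in mTert. The log2 difference was 0.96 for mTert 1 over control 1, 1.21 for mTert 2 over control 2, 1.38 for mTert 1 over control 2 and 0.79 for mTert 2 over control 1. Each of these is larger than the difference within a group, which was -0.17 for mTert 2 minus mTert 1 and -0.42 for control 2 minus control 1. Without control 1, the array with less cRNA, the difference was 1.29. Its difference was the sixth largest in the positive direction among the 12396 probe sets tested, that is, those called present on at least 2 arrays. Chd6 was read by this probe set alone, so no second probe set bears on its value.

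**Figure D1:**
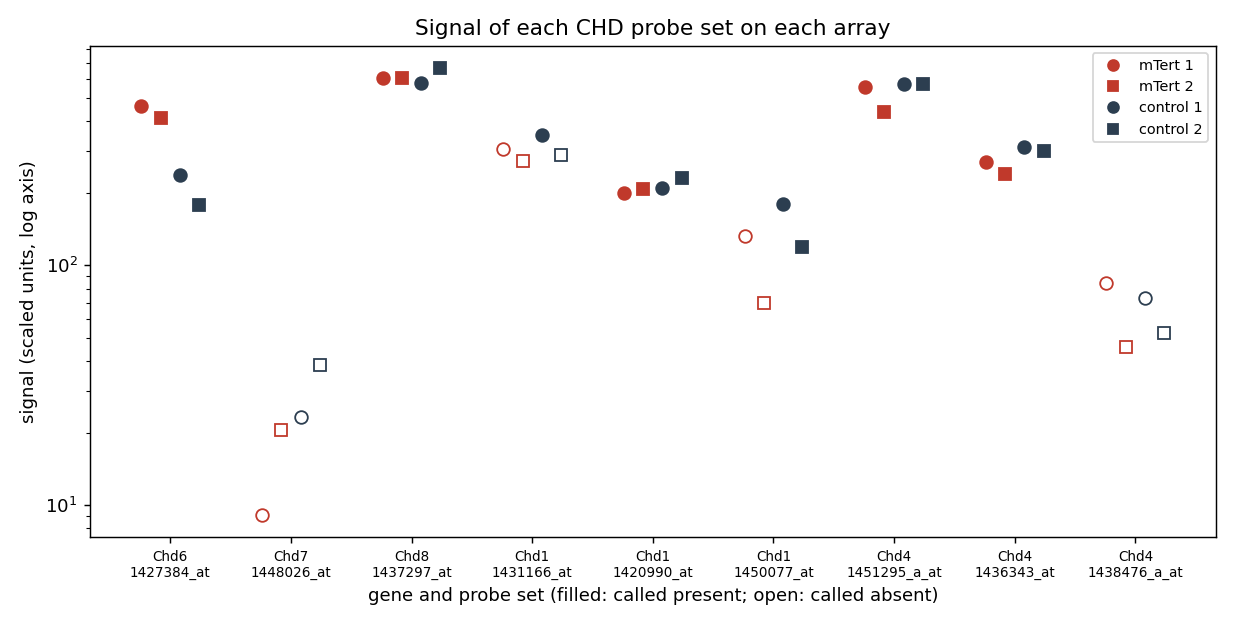
Signal (scaled units, logarithmic axis) of the 9 CHD probe sets on each array, mTert in red and control in dark blue, circles for arrays numbered 1 and squares for arrays numbered 2, filled where called present and open where absent. Chd6 signals of 464 and 413 in mTert stand above 239 and 179 in control, and Chd7 and Chd4 1438476_a_at are called absent on every array. Levels of different probe sets are not comparable.

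Of the other members of the large subfamily with a probe set, Chd8 had overlapping groups and Chd7 was not above background. Chd8, which binds beta-catenin and CTCF and restrains Wnt target genes, was present on every array with signals of 605 and 605 in mTert and of 574 and 665 in control. The mTert signals lay between the control signals, so the groups overlapped. The mean was 605 ± 0.372 in mTert and 619 ± 63.8 in control (SD, n = 2 each), a log2 difference of -0.030 (SE 0.14, 95% interval -0.38 to 0.32). Without control 2 the log2 difference of Chd8 was 0.075, so its sign rests on that array.

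Chd7, the gene mutated in CHARGE syndrome and a regulator of neural crest genes, was called absent on all 4 arrays. Its signals were 9.10 and 20.6 in mTert and 23.4 and 38.4 in control, with detection p-values from 0.568 to 0.726. The signals were not above background in either group, so no fold is given and the probe set was not tested.

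Chd1, which binds histone H3 methylated at lysine 4 and works with elongating RNA polymerase, was read by 3 probe sets that differed in quality. The probe set present on all 4 arrays, 1420990_at, had signals of 200 and 208 in mTert and of 211 and 232 in control. The groups did not overlap, but the gap was small. The log2 difference was -0.11 (SE 0.18, 95% interval -0.56 to 0.33), and it was -0.048 without control 2 and -0.18 without control 1. Its mean was 204 ± 5.83 in mTert and 221 ± 14.6 in control (SD, n = 2 each).

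The Chd1 probe set 1450077_at had signals of 133 and 69.8 in mTert, where it was called absent on both arrays, and of 181 and 120 in control, where it was called present on both. It therefore passed the filter on calls through the control group alone, so that the side it lies on is in part set by that filter. Its groups overlapped, since mTert 1 lay above control 2, and its log2 difference was -0.61 (SE 0.38, 95% interval -1.55 to 0.32). The difference was -0.15 without mTert 2, -0.31 without control 1, -0.91 without control 2 and -1.08 without mTert 1. The third Chd1 probe set, 1431166_at, was present on control 1 only and was not tested, with signals of 306 and 273 in mTert and of 351 and 288 in control. These last 2 probe sets stand just inside and just outside the requirement of 2 present calls.

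Chd4, the Mi-2 beta motor of NuRD that couples nucleosome remodelling to histone deacetylation, had signals below the controls on both mTert arrays for both of its tested probe sets. Probe set 1436343_at read 270 and 241 in mTert and 313 and 301 in control. The groups were apart in every pairing, with a log2 difference of -0.27 (SE 0.17, 95% interval -0.68 to 0.14). Probe set 1451295_a_at read 554 and 436 in mTert and 572 and 572 in control. Here mTert 1 lay just under the controls and mTert 2 well under them, and the log2 difference was -0.22 (SE 0.17, 95% interval -0.62 to 0.19).

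The Chd4 difference of 1451295_a_at was -0.39 without mTert 1 and -0.047 without mTert 2, so its size rests on mTert 2. That of 1436343_at was -0.35 and -0.19 without the same arrays. The third Chd4 probe set, 1438476_a_at, was absent on all 4 arrays, with signals of 84.7 and 45.5 in mTert and of 73.2 and 52.0 in control, and was not tested. Fewer cells with a transcript and less of it per cell cannot be told apart in any of these bulk samples.

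**Figure D2:**
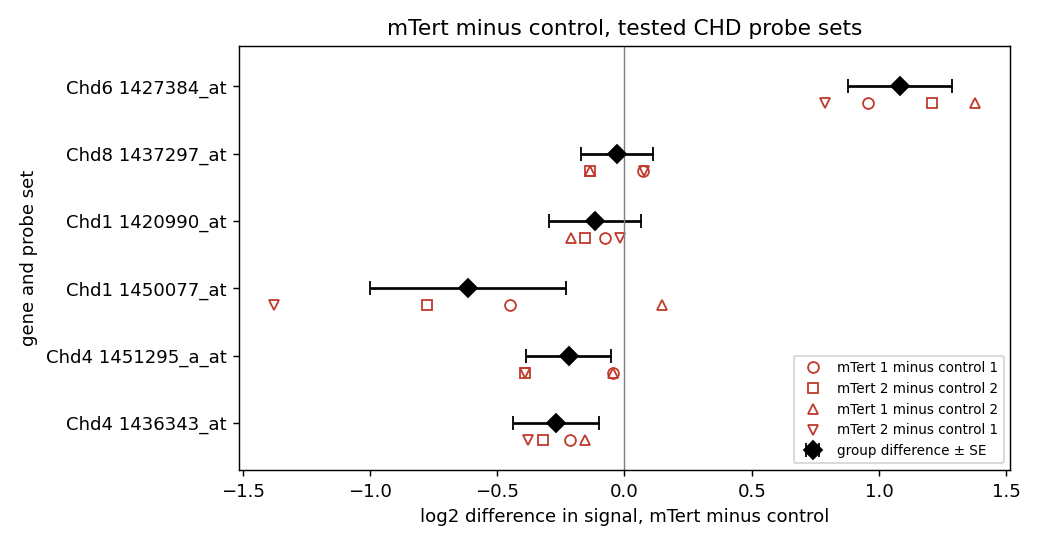
Log2 difference in signal, mTert minus control, for the 6 tested CHD probe sets: black diamonds give the group difference with limma's SE, and open red symbols the 4 pairings of single arrays. Chd6, at 1.08, is the 1 probe set with all pairings above 0. Both Chd4 probe sets and Chd1 1420990_at have all pairings below 0, and Chd8 and Chd1 1450077_at lie on both sides.

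Of the 9 probe sets, 6 were tested, for 4 genes: 5 were present on all 4 arrays, and the sixth, Chd1 1450077_at, entered through the control group alone. Chd6 lay higher in mTert with groups apart, where 13.4% of all tested probe sets did. Chd1 1420990_at and both Chd4 probe sets lay lower with groups apart, where 12.1% of all did. Chd6 was also the 1 CHD probe set with groups apart and at least 1.5-fold higher, where 0.363% of all tested were, and 0 CHD probe sets were apart and at least 1.5-fold lower, where 0.573% of all were. The median log2 difference over the 6 was -0.17, beside 0.0058 over all tested probe sets. With the brightest probe set of each of the 4 genes the median was -0.072, and without Chd1 1450077_at it was -0.11. Since this comparison led to the choice of the family, nothing is read from these counts.

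In the fit across all tested probe sets, limma called 0 of the 6 at an adjusted p of 0.05, where 0% of all were called. Tert, at least 9.53-fold higher in mTert, was not called by this fit either (limma adjusted p = 0.188). An absence of calls here therefore does not show an absence of differences. At an unadjusted p under 0.05 limma gave 1 of the 6, which was Chd6, and 261 of all 12396. Whether Chd6 differs from its relatives in this comparison was not tested, for the same reason.

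The arrays numbered 2 and those numbered 1 in the sample titles give a second comparison, in which each number holds 1 mTert and 1 control sample. It is not wholly apart from the choice of the family. The fit of groups had no term for the number, so differences between numbers add to its spread. A small p-value for Chd6 in that fit favours a small difference between numbers, so nothing is read from the value of Chd6 here. Between numbers, limma called 0 of 6 CHD probe sets at an adjusted p of 0.05, where 2.8% of all tested probe sets were called. Limma gave an unadjusted p under 0.05 to 1 of 6, against 1268 of all. Chd6 had a mean of 296 on the arrays numbered 2 and of 352 on those numbered 1, a log2 difference of -0.29 (SE 0.20, 95% interval -0.72 to 0.13, limma adjusted p = 0.762). The numbers overlapped for Chd6. Its mTert signals lay above its control signals within each number.

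Chd1 1450077_at was called absent on both mTert arrays, so 1 array of each number was not above background for it. Its difference between numbers was -0.76 (SE 0.28, limma adjusted p = 0.237), with means of 94.7 on arrays numbered 2 and of 157 on arrays numbered 1. Both arrays numbered 2 lay below both numbered 1, as for 19.4% of all tested probe sets. For Chd8 they lay above, as for 20.3% of all, with a difference of 0.11 (SE 0.16, limma adjusted p = 0.970). Chd1 1420990_at stood at 0.096 (SE 0.22), Chd4 1451295_a_at at -0.17 (SE 0.17) and Chd4 1436343_at at -0.11 (SE 0.20), each with overlapping numbers. Macrophage markers were higher on both arrays numbered 2, as given above, and their part in these differences was not tested.

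**Figure D3:**
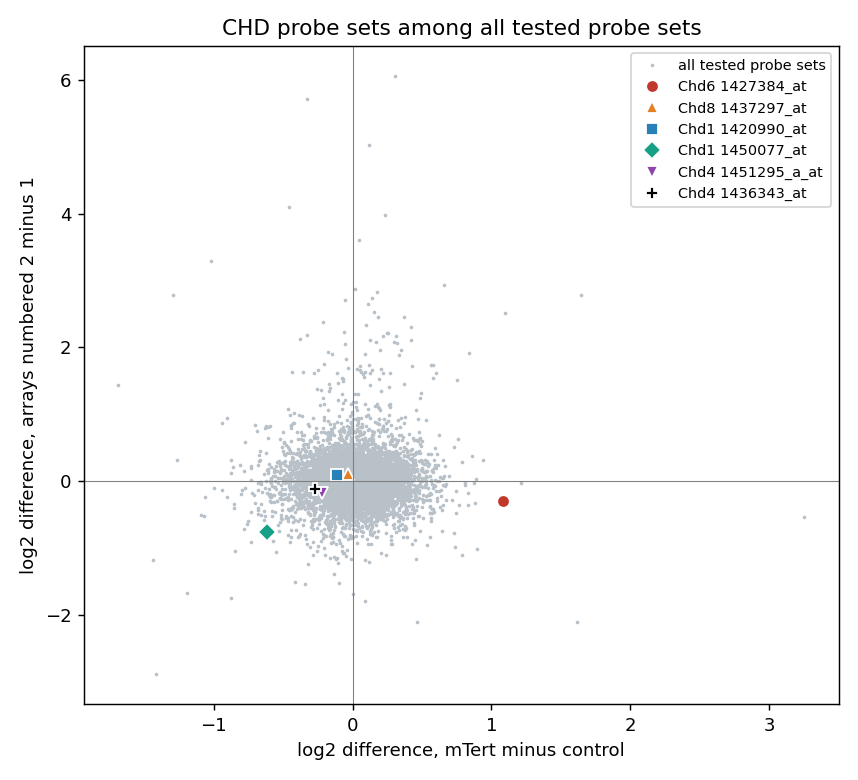
Log2 difference between mTert and control (horizontal) and between arrays numbered 2 and 1 (vertical) for all 12396 tested probe sets in grey and the 6 CHD probe sets in colour. Chd6 lies at 1.08 and -0.29, to the right of nearly all other probe sets, and Chd1 1450077_at at -0.61 and -0.76.

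Chd6's profile over the 4 arrays was set beside those of 11276 other tested probe sets with 1 gene symbol that is not a clone name, by the Euclidean distance between log2 signals centred on their mean. The nearest was Bpgm, the bisphosphoglycerate mutase, at a distance of 0.37, with signals of 188 and 178 in mTert and of 118 and 101 in control. Pitpnm2 followed at 0.38, then Slc15a1, a peptide transporter, at 0.41, and Txnip, the thioredoxin-interacting protein, and Kif18a, a mitotic kinesin, both at 0.43. Each of the 5 lay higher on both mTert arrays, with log2 differences between 0.74 and 0.87, which follows from choosing them by nearness to Chd6. A likeness over 4 arrays of 1 comparison describes these arrays alone.

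The tested probe sets of the family were farther from Chd6 than that. Chd8 lay at a distance of 1.21, with 7254 probe sets closer to Chd6, and Chd1 1450077_at at 1.78, with 11095 closer. The other Chd1 probe set and both Chd4 probe sets lay between 1.27 and 1.37, and the median over all candidates was 1.15. Chd6 was chosen for its difference between these groups, which sets much of its distance to any other profile. Nothing about the family is read from these distances.

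Partners of the CHD proteins and subunits of the other remodelling families were examined as 8 lists with 94 genes, of which 73 were measured. Chd5, a CHD gene that was not among the members examined, stood in the list of other Snf2 ATPases and was not measured. Limma called 0 of the 73 higher and 0 lower in mTert at an adjusted p of 0.05, where 0% of all probe sets were called. Since this fit did not call Tert either, that does not show an absence of differences. An unadjusted p under 0.05 was given by limma to 2 of the 73, Cdk2ap1 and Ctr9, beside 261 of all 12396 probe sets. Groups were apart for 12 higher and 8 lower genes, 16.4% and 11.0%, where 13.8% and 11.7% of all 7387 genes were apart by their brightest probe set. Pooled over the lists, these shares are near the background, but they were uneven between lists. Apart and higher were 36.4% of the NuRD genes and 37.5% of the other Snf2 ATPases, and from 0% to 16.7% in the remaining lists. Apart and lower ran from 0% to 33.3%, the latter for the elongation partners of Chd1. Each list holds few genes, and whether the lists differ was not tested. The median log2 difference over the 73 genes was 0.0018, beside 0.0076 over all genes, and the values ran from -0.33 to 0.50. That of Chd6 lay outside this range, but Chd6 was chosen for its value in this comparison, so nothing is read from it.

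NuRD, the complex that Chd4 drives, had 11 measured genes besides the CHD motors, 6 higher and 5 lower in sign, with a median of 0.0099. Cdk2ap1, a small NuRD subunit, had signals of 4359 and 4310 in mTert and of 3561 and 2823 in control, apart in every pairing, and both of its other tested probe sets lay on the same side. Mta2 stood at 0.28 (SE 0.13) and Mta3 at -0.33 (SE 0.23). The deacetylases Hdac1 and Hdac2 stood at 0.044 (SE 0.11) and -0.098 (SE 0.17), with overlapping groups.

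Of the elongation factors that work with Chd1, 6 were measured, 2 higher and 4 lower in sign, with a median of -0.077. Ctr9, the scaffold of the PAF1 complex, had signals of 618 and 602 in mTert and of 424 and 438 in control, a log2 difference of 0.50 (SE 0.14), and both of its other tested probe sets lay on the same side. Its complex partners Cdc73 and Paf1 stood on the opposite side, at -0.20 (SE 0.12) and -0.27 (SE 0.22).

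Nfe2l2, the stress factor whose human protein binds CHD6, had a log2 difference of 0.010 (SE 0.11). Over Nfe2l2, its inhibitor Keap1 and 6 measured target genes the median was 0.0038, with 4 higher and 4 lower in sign. Hmox1, the heme oxygenase, stood at -0.23 (SE 0.11), with signals of 1042 and 1030 in mTert and of 1169 and 1255 in control. Txnrd1, a thioredoxin reductase, stood at 0.14 (SE 0.12) and Keap1 at 0.091 (SE 0.12). The 5 measured genes of the histone H3 lysine 4 methyltransferase core and Ctcf, partners of Chd8, had a median of 0.023, with groups overlapping for each: Wdr5 stood at 0.093 (SE 0.15), Dpy30 at 0.088 (SE 0.15) and Kmt2a at -0.047 (SE 0.17).

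The range given above was taken over all lists, including the other families of remodellers, whose values follow. The 16 SWI/SNF genes had a median of -0.050, with Actl6a at 0.48 (SE 0.27), Pbrm1 at -0.18 (SE 0.11) and Arid2 at -0.20 (SE 0.12), and the motor Smarca4 at 0.0018 (SE 0.12). The 8 ISWI genes had a median of 0.039, with Chrac1 at 0.22 (SE 0.14), Baz2b at 0.14 (SE 0.27) and Smarca1 at 0.098 (SE 0.24). The 11 genes of the INO80, SRCAP and p400 complexes had a median of -0.048, with Actr6 at -0.18 (SE 0.19), Dmap1 at -0.14 (SE 0.16) and Ino80 at -0.12 (SE 0.15). The 8 other Snf2 ATPases had a median of 0.044, with the repair gene Rad54l at 0.41 (SE 0.21), Smarcad1 at 0.14 (SE 0.13) and Shprh at -0.11 (SE 0.21). Chd1l, a relative of the family without the tandem chromodomains, stood at 0.045 (SE 0.20). The second tested probe set lay on the opposite side for Rad54l, Ino80, Smarca4 and Keap1.

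The direction of several of these medians rested on single arrays. The SWI/SNF median was 0.012 without mTert 2 and 0.027 without control 2, the ISWI median was -0.0090 without control 2, and that of the INO80, SRCAP and p400 genes was 0.031 without control 1. The median of Nfe2l2 and its targets was -0.030 without mTert 2, and that of the partners of Chd8 was -0.0077 without mTert 2 and -0.033 without control 1.

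**Figure D4:**
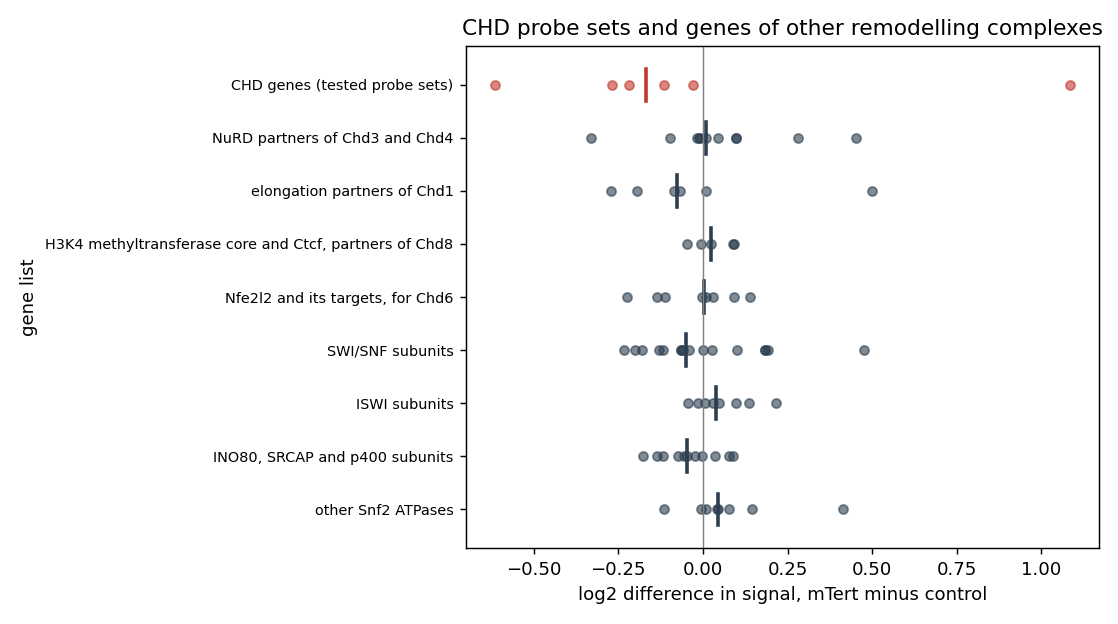
Log2 difference in signal, mTert minus control, for the 6 tested CHD probe sets (red) and for the genes of 8 lists of partners and other remodellers (dark blue, brightest probe set per gene), with a vertical bar at each median. The lists run from -0.33 to 0.50, and Chd6, at 1.08 and chosen for its value in this comparison, lies to the right of all of them.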

How the data were processed

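Per the file headers, the authors deposited for each array a linear intensity of every probe set, its call (present, marginal or absent) and a detection p-value; no source used here names the software. Intensities in the series table were identical. Each array was scaled to a common mean after trimming 2% of probe sets at each end, and log2 was taken; 1 value of 0 was replaced by the lowest present signal of that array. Leaving out the 64 controls, 12396 probe sets called present on at least 2 of the 4 arrays were tested with limma 3.58.1 in R 4.3.3 (lmFit, eBayes with an intensity trend), with Benjamini-Hochberg adjustment over all of them. The comparison of groups had no replicate term, and that of numbers had a group term. Titles gave groups and numbers, and GEO's platform annotation the symbols. The fit was also run on simulated data with planted differences and independent noise, which leaves out the correlation between arrays of the same number.

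The members and lists were chosen with earlier results of these data known. Named are all member probe sets, Tert, the 3 genes of each list with the smallest limma p and the 5 profiles nearest to Chd6; Hdac1, Hdac2, Nfe2l2, Smarca4 and Chd1l were named in addition for their role, after their values were seen. Alternatives were quantile normalization, other filters on calls, no trend, a floor of 50, the series table, 1 array left out and a replicate block. The number of arrays limits the precision.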

Additional observations from a re-analysis of the deposited data

How the results depend on the processing

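Of 202 recomputed values, 179 were taken as unchanged. Differences and medians among them kept their direction and call or moved by less than the spread between replicates. Counts of called probe sets have no such spread, and some taken as unchanged still moved. Part of the 179 could not move, so this number overstates stability. The series table held the same intensities, and neither leaving out the trend nor adding the replicate block can change a log2 difference or a median. Chd6 lay between 0.87 and 1.29 on the log2 scale with 1 array left out. The numbers in the titles are not known to pair samples, and deviations of arrays with the same number correlated at 0.37. With a replicate block limma called 18 of all probe sets. The 1 CHD probe set among them was Chd6, at 1.08 (limma adjusted p = 0.040, against 1.00 without the block). This block changed no other CHD call. Chd6 was chosen for its value in this comparison, so its call supports no statement about Chd6 or the family. Tert was also called with the block (limma adjusted p = 9.6e-08, against 0.188 without it). Chd8 ran from -0.135 to 0.075 with 1 array left out, and was on the higher side at 0.075 without control 2. The CHD median was -0.072 with 1 probe set per gene, against -0.17 over all 6, and -0.11 without Chd1 1450077_at, which was chosen after seeing the data. Between numbers, limma called 347 of all probe sets. The count was 240 with quantile normalization, 242 with no filter on calls and 244 with presence on all 4 arrays required. It was 76 without a trend, 16 with signals under 50 set to 50 and 192 without a group term. In each of these limma called 0 CHD probe sets. Leaving out 1 array in that comparison left no residual degrees of freedom, so it was not run. Medians of the partner lists moved by more than their spread in 15 recomputations, 13 of them with 1 array left out. The causes of these moves were not tested.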
